A study of Mus musculus with 6 samples.

Results

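The genes described here encode the nuclear subunits and assembly factors of respiratory complex I in mouse hippocampus. They are the rows of the deposited gene table whose symbol begins with Nduf and does not hold "-ps": 49 of 31838 genes. Of these, 38 are subunit genes (Ndufa, Ndufb, Ndufc, Ndufs and Ndufv), 8 are assembly factors (Ndufaf1 to Ndufaf8), and 3 are processed pseudogene copies (Ndufa11b, Ndufb4c and Ndufs6b). The symbol rule left out 4 other rows (Ndufa12-ps, Ndufb1-ps, Ndufab1-ps and Ndufs5-ps). The polyadenylated RNA came from wild type C57BL/6 mice, 4 months old, in 2 groups of 3 libraries. The treated mice received BBP (butyl benzyl phthalate, used to soften plastics) at 50 mg/kg/day, and the control mice received corn oil. From its title, the study is about phthalate exposure and cognition, and the comparison addresses what BBP does to hippocampal RNA. Nothing in the labels ties a library to 1 animal, so p-values here cover the spread between libraries only, which may be technical.

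Complex I is the largest enzyme of the respiratory chain: it oxidises NADH, passes the electrons along iron-sulfur clusters to ubiquinone and pumps protons across the mitochondrial inner membrane. It has a matrix arm, made of a module that takes electrons from NADH and a module that reduces ubiquinone, and a membrane arm that pumps protons, with a proximal and a distal part. The core subunits carry out the chemistry and are conserved from bacteria, the accessory subunits surround them, and the core of the membrane arm is encoded by mitochondrial DNA. Assembly factors help to build the enzyme and are not part of the finished complex. Neurons rely on oxidative phosphorylation for most of their ATP, and inherited defects of complex I often affect the brain.

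The estimated counts summed to 62477604 to 67270275 in the BBP libraries and to 62747522 to 68422361 in the corn oil libraries. Mitochondrially encoded RNA took 7.79%, 11.5% and 7.17% of counts in BBP libraries 1, 2 and 3, against 7.11%, 7.61% and 8.57% in corn oil libraries 1, 2 and 3. The 11 neuron markers had summed levels of 1121 to 1210 FPKM (fragments scaled to transcript length and library size) in the BBP libraries and of 1115 to 1176 FPKM in the corn oil libraries. All 8 dentate granule cell markers and all 6 CA1 markers in the table were above 0 in every library. BBP library 1 stood apart in markers of neighbouring regions: its 11 striatum markers had a median of 1.62 and its 9 isocortex markers a median of 1.22, both as log2 CPM (counts scaled to library size) minus the corn oil mean. On the same scale its dentate granule cell markers had a median of -0.95 and its 8 CA2 and CA3 markers a median of -0.93. BBP library 2 stood apart in the mitochondrial RNA and, as described next, in the complex I genes.

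Nearly all complex I genes had lower estimates in the BBP group, but no single gene passed the test, and BBP library 2 carried much of the difference. With edgeR's quasi-likelihood test, 37 of 38 subunit genes and 7 of 8 assembly factors had a negative log2 fold change (BBP over corn oil), beside 47.6% of the 20428 genes tested. The median log2 fold change was -0.18 over the subunits, -0.17 over the assembly factors and 0.01 over all genes tested. None of the members passed a Benjamini-Hochberg adjusted p of 0.05 (their smallest was 0.953), and 0 of all genes did (0%). At an unadjusted p under 0.05 the test found 685 genes (3.35%). At that looser level 6 members were lower in the BBP group (Ndufc2, Ndufa13, Ndufc1, Ndufb3, Ndufa3 and Ndufs8), where the share of all genes was 1.37%, and 1 was higher (Ndufa4l2), where it was 1.98%. DESeq2 called 3 genes at the adjusted level and 829 at an unadjusted p under 0.05, and limma on log2(FPKM + 1) called 0 and 396. Neither called a member at the adjusted level. In FPKM, all 3 BBP libraries lay below all 3 corn oil libraries for 7 members, against 5.25% of all genes. These were Ndufv3, Ndufs8, Ndufb3, Ndufa13, Ndufa3, Ndufc1 and Ndufc2. For 1 member (Ndufa4l2) they lay above, against 4.4% of all genes.

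The BBP libraries differed among themselves in these genes. As medians of log2 CPM minus the corn oil mean, the subunits stood at -0.02, -0.41 and -0.19 in BBP libraries 1, 2 and 3, against 0.01, -0.04 and 0.04 in corn oil libraries 1, 2 and 3. The assembly factors stood at 0.03, -0.39 and -0.09 in the BBP libraries, against -0.01, -0.10 and 0.08 in the corn oil libraries. BBP library 1 was therefore at the corn oil level, BBP library 3 was intermediate for the subunits, and BBP library 2 was the lowest. Of the 46 subunits and assembly factors, 37 had their lowest value of all 6 libraries in BBP library 2 (80.4%), and 26.7% of all genes tested did. In BBP library 2, 35 of the 46 lay more than 0.25 below the corn oil mean on the log2 scale, beside 24.5% of all genes. The same count was 1 in BBP library 1, beside 19.3% of all genes, and 8 in BBP library 3, beside 16%. For 34 of the 46 (73.9%), BBP library 2 was below BBP library 3, which was below BBP library 1, and 21.1% of all genes had this order. Without BBP library 2 the median log2 fold change was -0.10 over the subunits and -0.04 over the assembly factors. Without BBP library 1 these medians were -0.29 and -0.30, and 27 members had an unadjusted p under 0.05, in a fit where 1475 of all genes did (7%, against 3.35% with all libraries). The smallest adjusted p of the members in that fit was 0.700. In bulk tissue, fewer cells of a type and less RNA per cell cannot be told apart.

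**Figure D1:**
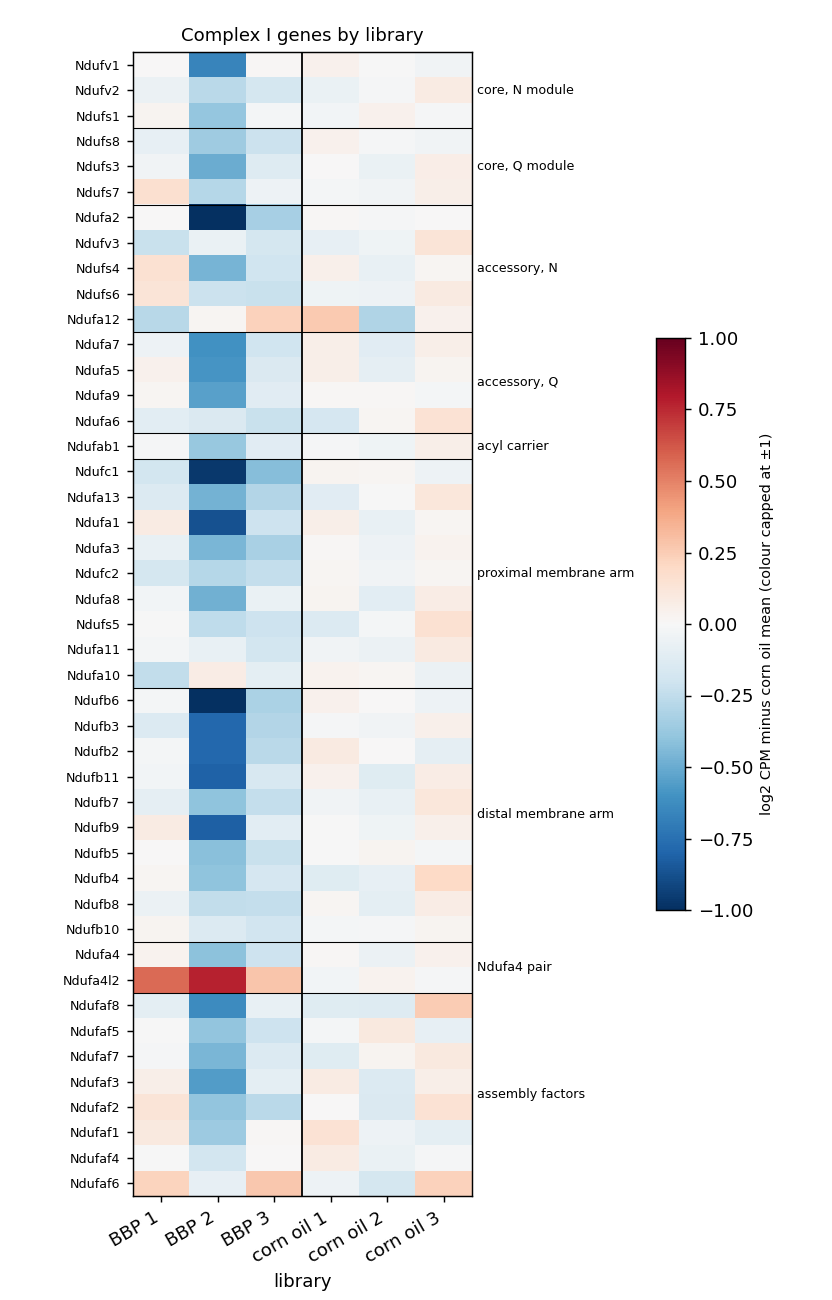
Log2 CPM minus the corn oil mean for 45 of the 46 subunits and assembly factors (rows, by role; N is the NADH module, Q the ubiquinone module) in each library (columns, BBP on the left). Blue is below and red above the corn oil mean, with the colour capped at 1 on the log2 scale either way. BBP library 2 is the bluest column: 37 of 46 members have their lowest value there.

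The corn oil libraries lay close together, and the BBP libraries did not. The SD between libraries of the subunit median was 0.195 in the BBP group and 0.0404 in the corn oil group. Gene by gene, the SD of the subunits had a median of 0.227 in the BBP group and 0.0583 in the corn oil group, where the medians over all genes were 0.243 and 0.144. The SD was larger in the BBP group for 41 of the 46 members (89.1%), and for 71.0% of all genes. The subunits were thus more even than genes in general within the corn oil group, and their spread in the BBP group was close to that of genes in general. The 46 members were also more abundant (median log2 CPM 5.77, against 3.39 over all genes tested). The SDs were not compared with those of equally abundant genes, so they do not set complex I apart from such genes. The difference in spread was not tested.

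The 7 nuclear core subunits had a median log2 fold change of -0.16, and all 7 had their lowest value in BBP library 2. Ndufv1, which binds NADH and its flavin, stood at 54.1, 31.6 and 55.0 FPKM in BBP libraries 1, 2 and 3, against 55.2, 53.2 and 52.4 FPKM in the corn oil libraries. Ndufv2, its iron-sulfur partner, stood at 52.3, 41.8 and 48.9 FPKM in the BBP libraries, against 51.5, 53.5 and 57.5 FPKM in the corn oil libraries. Ndufs1, which carries most of the clusters of the NADH module, stood at 16.4, 11.4 and 16.1 FPKM in the BBP libraries, against 15.7, 16.5 and 16 FPKM in the corn oil libraries. For Ndufv1 and Ndufs1, then, BBP library 2 stood alone below a tight group of 5, and for Ndufv2 BBP library 1 overlapped the corn oil libraries. Their log2 fold changes were -0.18 ± 0.17 (SE), -0.16 ± 0.09 and -0.12 ± 0.12, and the adjusted p was 0.953 for each.

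In the ubiquinone module, Ndufs3, a scaffold of the early matrix arm, stood at 37.0, 25.0 and 35.2 FPKM in BBP libraries 1, 2 and 3, against 37.7, 36.0 and 39.6 FPKM in the corn oil libraries. Ndufs7, which holds the last iron-sulfur cluster before ubiquinone, stood at 35.6, 24.4 and 31.3 FPKM in the BBP libraries, against 31.2, 30.9 and 33.2 FPKM in the corn oil libraries. Both genes were lowest in BBP library 2, and in BBP library 1 they were within or above the corn oil range. Ndufs8, which holds the iron-sulfur clusters just before that of Ndufs7, was the exception. It stood at 39.7, 30.5 and 36.7 FPKM in the BBP libraries, against 43.1, 41.4 and 41.0 FPKM in the corn oil libraries, so the groups did not overlap. It averaged 35.6 ± 4.68 FPKM in the BBP group and 41.8 ± 1.08 FPKM in the corn oil group (SD, n = 3 each), a log2 fold change of -0.21 ± 0.09 (SE; edgeR unadjusted p = 0.0487, adjusted p = 0.953).

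The 29 accessory subunits were all below 0 in log2 fold change, with a median of -0.20, though Ndufa12 only just (-0.01 ± 0.17, SE). Of the 5 on the NADH module (median -0.15), Ndufa2, which has a thioredoxin-like fold, showed the largest deviation of any member. It stood at 64.6, 24.1 and 51.8 FPKM in BBP libraries 1, 2 and 3, against 64.6, 63.5 and 64.6 FPKM in the corn oil libraries. Its value in BBP library 1 equalled the corn oil level, while that in BBP library 2 lay 1.31 below the corn oil mean on the log2 CPM scale (deviation -1.31). The log2 fold change of -0.45 had an SE of 0.28. Ndufs6, a zinc-binding subunit, stood at 38.7, 28.3 and 30.7 FPKM in the BBP libraries, against 34.1, 33.9 and 37.7 FPKM in the corn oil libraries. Ndufv3 stood at 11.8, 12.2 and 12.3 FPKM in the BBP libraries, against 12.9, 13.2 and 15.1 FPKM in the corn oil libraries. In FPKM its groups did not overlap and BBP library 2 was in the middle of its group. On the log2 CPM scale its deviations were -0.23, -0.06 and -0.18 in the BBP libraries, against -0.09, -0.05 and 0.13 in the corn oil libraries. There the groups overlapped, with BBP library 2 the highest of its group. Ndufs4, whose loss causes Leigh-like encephalopathy in mice, stood at 19.2, 11.6 and 15.2 FPKM in the BBP libraries, against 17.8, 16.3 and 17.5 FPKM in the corn oil libraries.

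The 4 accessory subunits on the ubiquinone module had a median log2 fold change of -0.20. Ndufa5 stood at 52.9, 31.7 and 47.0 FPKM in BBP libraries 1, 2 and 3, against 53.3, 48.0 and 52.3 FPKM in the corn oil libraries. Ndufa9, which has the fold of a short-chain dehydrogenase, stood at 45.3, 28.6 and 41.9 FPKM in the BBP libraries, against 44.9, 44.7 and 44.0 FPKM in the corn oil libraries. Ndufa7 stood at 24.1, 15.2 and 22 FPKM in the BBP libraries, against 25.8, 22.9 and 25.9 FPKM in the corn oil libraries. All 3 were lowest in BBP library 2, and in BBP library 1 they were within or near the corn oil range. Ndufa6, which binds the acyl carrier protein, had a log2 fold change of -0.16, as did Ndufab1, the mitochondrial acyl carrier protein itself. Ndufab1 stood at 8.95, 6.44 and 8.45 FPKM in the BBP libraries, against 8.91, 8.69 and 9.40 FPKM in the corn oil libraries.

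The 19 nuclear membrane arm subunits had a median log2 fold change of -0.23, against -0.16 for the 16 of the matrix arm, a difference that was not tested. In the 9 of the proximal part, 4 lay lower with no overlap between groups (Ndufc1, Ndufc2, Ndufa13 and Ndufa3), where the share of all genes was 5.25%. These 4 were also at an unadjusted p under 0.05, where the share of all genes was 1.37%. Ndufc1 (mm10 chromosome 3, 51404677 to 51408988, minus strand) stood at 15.3, 8.26 and 13.2 FPKM in BBP libraries 1, 2 and 3, against 17.6, 17.6 and 16.9 FPKM in the corn oil libraries. It had the most negative log2 fold change of all members, -0.49 ± 0.18 (SE; edgeR unadjusted p = 0.0272, adjusted p = 0.953). Ndufc2, which sits beside it in the membrane, stood at 70.0, 60.3 and 67.9 FPKM in the BBP libraries, against 79.3, 76.6 and 79.9 FPKM in the corn oil libraries. All 3 BBP libraries were below the corn oil range for both Ndufc genes, BBP library 1 included.

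Ndufc2 had the smallest unadjusted p of the members (0.016, edgeR; adjusted p = 0.953), with 66.1 ± 5.11 FPKM in the BBP group and 78.6 ± 1.77 FPKM in the corn oil group (SD, n = 3 each) and a log2 fold change of -0.23 ± 0.08 (SE). Ndufa13, also known as GRIM-19, stood at 49.1, 36.2 and 44.7 FPKM in the BBP libraries, against 49.7, 53.5 and 58.5 FPKM in the corn oil libraries. Its groups only just failed to overlap, at 49.1 FPKM in BBP library 1 and 49.7 FPKM in corn oil library 1. Ndufa3 stood at 29.2, 20.8 and 24.9 FPKM in the BBP libraries, against 30.8, 29.5 and 31.5 FPKM in the corn oil libraries, close to touching as well. Ndufa8 and Ndufs5, intermembrane-space subunits held by disulfides and the most abundant of the proximal part in FPKM, overlapped between groups. Ndufa8 stood at 83.7, 56.6 and 82.6 FPKM in the BBP libraries, against 86.2, 78.7 and 89.9 FPKM in the corn oil libraries, and Ndufs5 at 81.6, 63.7 and 72.0 FPKM in the BBP libraries, against 74.1, 80.2 and 91.0 FPKM in the corn oil libraries. Ndufa1 had a deviation of -0.87 in BBP library 2, with log2 fold change -0.28, while Ndufa11 had -0.08 and -0.09.

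In the distal part, all 10 genes were below 0 in log2 fold change, with a median of -0.24. Ndufb9, the most abundant of them in FPKM, stood at 115, 57.1 and 102 FPKM in BBP libraries 1, 2 and 3, against 107, 104 and 112 FPKM in the corn oil libraries. Ndufb10 stood at 83.1, 68.9 and 72.6 FPKM in the BBP libraries, against 80.1, 80.6 and 83.3 FPKM in the corn oil libraries. In BBP library 2 their deviations were very unequal (-0.82 for Ndufb9 and -0.14 for Ndufb10), and on that scale Ndufb10 was lower in BBP library 3 (-0.19). Ndufb3 stood at 72.7, 42.8 and 65.9 FPKM in the BBP libraries, against 78.6, 77.1 and 82.5 FPKM in the corn oil libraries, the 1 distal gene whose groups did not overlap in FPKM. It averaged 60.5 ± 15.7 FPKM in the BBP group and 79.4 ± 2.74 FPKM in the corn oil group (SD, n = 3 each; log2 fold change -0.38 ± 0.15 (SE), edgeR unadjusted p = 0.0388, adjusted p = 0.953). Ndufb6 had the most negative log2 fold change of the distal genes, -0.42 ± 0.24 (SE). Of the others, Ndufb2 had -0.33, Ndufb11 -0.29, Ndufb7 -0.24, Ndufb5 -0.20, and Ndufb4 and Ndufb8 -0.18. The row of the remaining distal subunit is named Ndufb1-ps although it is annotated as protein coding, so the symbol rule leaves it out. It had 20.6, 11.1 and 15.1 FPKM in the BBP libraries, against 21.4, 21.7 and 21.7 FPKM in the corn oil libraries.

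The members were therefore unequally low within BBP library 2. The extremes are named here after their values were seen. Besides Ndufa2, Ndufb6 was far below the corn oil mean: it stood at 68.9, 29.1 and 56.9 FPKM in BBP libraries 1, 2 and 3, against 71.7, 69.6 and 67.4 FPKM in the corn oil libraries (deviation -1.15 in BBP library 2). At the other end Ndufa10, a subunit of the nucleoside kinase family, stood at 33.6, 38.9 and 37.7 FPKM in the BBP libraries, against 40.6, 40.0 and 38.3 FPKM in the corn oil libraries (deviation 0.07). BBP library 2 thus held the lowest Ndufb6 value of the 6 libraries but the highest Ndufa10 value of its group. In all, 14 of the 46 members were more than 0.5 below the corn oil mean in BBP library 2, beside 11.6% of all genes. The same count was 0 in BBP library 1, beside 10.1% of all genes, and 0 in BBP library 3, beside 7.81%.

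**Figure D2:**
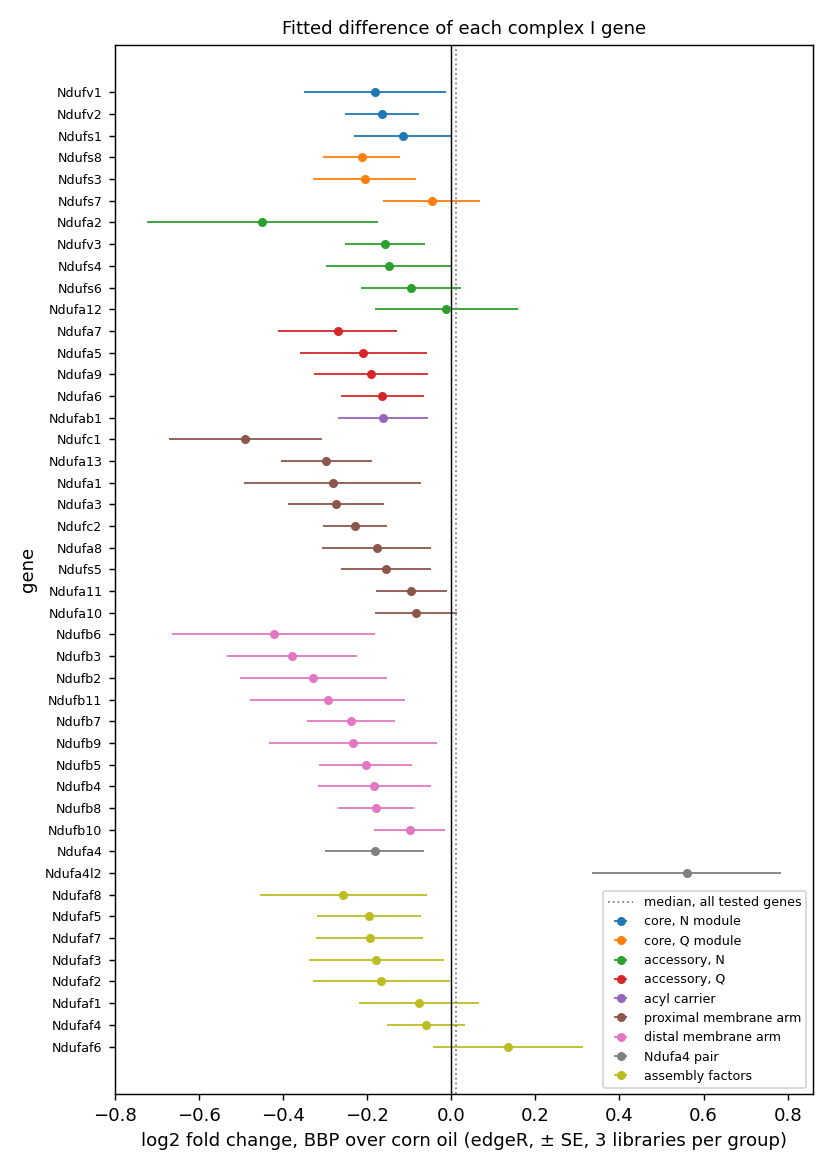
Log2 fold change (BBP over corn oil) with its SE for 45 of the 46 subunits and assembly factors, coloured by role; the dotted line is the median of all genes tested (0.01). All points but Ndufa4l2 (0.56) and Ndufaf6 (0.13) lie below 0, and the SEs span 0.08 to 0.28.

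Ndufa4 and Ndufa4l2 carry the Ndufa name, but their proteins have since been placed with complex IV. Ndufa4 stood at 130, 88.4 and 111 FPKM in BBP libraries 1, 2 and 3, against 127, 121 and 131 FPKM in the corn oil libraries, the highest mean FPKM of the members. Ndufa4l2, a hypoxia-responsive relative, stood at 1.91, 2.06 and 1.59 FPKM in the BBP libraries, against 1.26, 1.31 and 1.26 FPKM in the corn oil libraries. It was the only subunit row with a positive log2 fold change (0.56 ± 0.22, SE; edgeR unadjusted p = 0.0365, adjusted p = 0.953), and the groups did not overlap. It rests on 149, 158 and 129 estimated counts in the BBP libraries, against 97, 101 and 107 in the corn oil libraries. An exon of it overlaps Shmt2 on the opposite strand, and since the strand setting of the counting is not given in the sources used here, reads of the pair may not be separable. Of the endothelial and mural cell markers, 9 of 10 were also above 0 in log2 fold change (median 0.18), with summed levels of 58.6 to 82.9 FPKM in the BBP libraries and of 64.8 to 71.9 FPKM in the corn oil libraries and none at 0. Their part in the Ndufa4l2 value was not tested. Without these 2 rows, 36 of 36 subunit genes were below 0, with a median of -0.19. Nearest 0 was Ndufa12 (-0.01 ± 0.17, SE). With the counts of its processed copy Ndufa12-ps added, its BBP mean minus its corn oil mean was 0.03 (log2).

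The assembly factors were about as low as the subunits but less even within the corn oil group (SD of their median 0.0875, against 0.0404 for the subunits). Ndufaf1, which works with Ecsit and Acad9 on the membrane arm, stood at 13.6, 9.21 and 13 FPKM in BBP libraries 1, 2 and 3, against 14.1, 12.2 and 11.9 FPKM in the corn oil libraries. Ndufaf2, a relative of Ndufa12 that holds its place late in assembly, stood at 4.54, 2.94 and 3.50 FPKM in the BBP libraries, against 4.15, 3.73 and 4.6 FPKM in the corn oil libraries. The early factors of the ubiquinone module, Ndufaf3 and Ndufaf4, were unlike each other in size of deviation. Ndufaf3 stood at 13.8, 8.39 and 12.6 FPKM in the BBP libraries, against 14.0, 12 and 13.8 FPKM in the corn oil libraries, and Ndufaf4 at 8.71, 7.17 and 8.88 FPKM in the BBP libraries, against 9.19, 8.30 and 8.67 FPKM in the corn oil libraries. For each of these 4 genes BBP library 2 was the lowest of all 6 and BBP library 1 lay inside the corn oil range.

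Ndufaf5, which hydroxylates an arginine of Ndufs7, stood at 14.5, 10.2 and 12.7 FPKM in the BBP libraries, against 14.2, 15.4 and 13.7 FPKM in the corn oil libraries. Its partner Ndufaf8 stood at 8.60, 5.51 and 8.83 FPKM in the BBP libraries, against 8.38, 8.33 and 11 FPKM in the corn oil libraries. Ndufaf7, a methyltransferase that acts on a core subunit, stood at 10.4, 7.10 and 9.66 FPKM in the BBP libraries, against 9.59, 10.6 and 11.2 FPKM in the corn oil libraries. These 3 genes were likewise lowest in BBP library 2, with deviations between -0.40 and -0.63. Ndufaf6 stood at 4.88, 3.69 and 5.14 FPKM in the BBP libraries, against 4.02, 3.67 and 4.92 FPKM in the corn oil libraries, and was the 1 assembly factor above 0 in log2 fold change (0.13 ± 0.18, SE). No assembly factor reached an unadjusted p under 0.05, where the share of all genes was 3.35%. In none did the groups fail to overlap, where the shares of all genes were 5.25% (lower) and 4.4% (higher). With 8 genes, counts of 0 are close to those shares. The median log2 fold change of the assembly factors minus that of the subunits was 0.01. Library by library this difference was 0.05, 0.01 and 0.11 in the BBP libraries, against -0.01, -0.06 and 0.03 in the corn oil libraries, with an SD of 0.0474 in the BBP group and 0.0471 in the corn oil group.

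**Figure D3:**
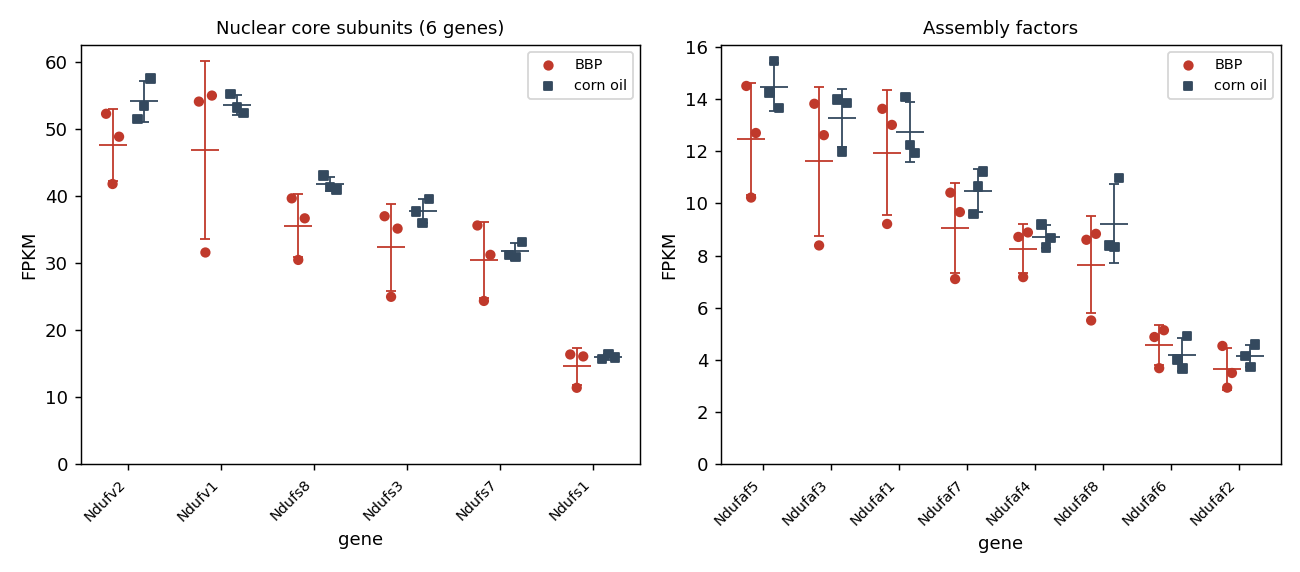
FPKM of 6 nuclear core subunits (left panel) and the assembly factors (right panel) in each library, BBP (circles) left of corn oil (squares) for each gene, with the group mean as a horizontal line and the SD as the error bar (n = 3 each). In nearly every gene 1 BBP point, that of library 2, lies below the rest (31.6 FPKM for Ndufv1), while the corn oil points lie close together, more so in the core subunits.

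On the FPKM scale the subunits had a median level of 38.5 and the assembly factors of 9.13. The summed level of the subunits was 1764, 1196 and 1604 FPKM in BBP libraries 1, 2 and 3, against 1775, 1721 and 1841 FPKM in the corn oil libraries. That of the assembly factors was 79.1, 54.2 and 74.3 FPKM in the BBP libraries, against 77.6, 74.3 and 79.8 FPKM in the corn oil libraries. Both sums were lowest in BBP library 2 and, in BBP library 1, close to the corn oil values. The order of levels among subunits depends on the length that was used. For 7 members, among them Ndufb7, Ndufb5 and Ndufb8, the length implied by the deposited counts and FPKM was over 3 times that of the principal transcript of the GENCODE M21 annotation. Ndufb7 ranked 38 of 46 by FPKM and 8 by counts per kilobase of the principal transcript.

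Mitochondrial genome transcripts of the same enzyme did not share this pattern in BBP library 2. Of the 7 mitochondrially encoded complex I mRNAs, 6 were above 0 in log2 fold change (median 0.29), and none passed an adjusted or unadjusted p under 0.05 with edgeR. As medians of log2 CPM minus the corn oil mean, they stood at 0.02, 0.83 and -0.15 in BBP libraries 1, 2 and 3, against -0.12, -0.01 and 0.14 in the corn oil libraries. In BBP library 3 all 7 were below the corn oil mean, as most nuclear subunits were. mt-Nd1 stood at 6128, 9607 and 5409 FPKM in the BBP libraries, against 5278, 5879 and 6598 FPKM in the corn oil libraries. BBP library 2 was thus the highest library for these mRNAs and the lowest for the nuclear subunits. The exception was mt-Nd3, with a log2 fold change of -0.10 and a deviation of 0.04 in BBP library 2. The 6 other mitochondrial mRNAs (median 0.23) were all above 0. With the mitochondrial genes taken out of the fit, the median of the nuclear subunits was -0.19.

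The genes of the other complexes were low together with the complex I genes. Complex III had 9 of 9 tested genes below 0 in log2 fold change (median -0.20), complex IV 9 of 10 (median -0.23), complex V 15 of 15 (median -0.17) and complex II 4 of 4 (median -0.13). Their median deviations in BBP libraries 1, 2 and 3 were -0.02, -0.49 and -0.19 for complex III, 0.05, -0.60 and -0.24 for complex IV, -0.02, -0.35 and -0.18 for complex V and -0.01, -0.31 and -0.10 for complex II. Each followed the order of the complex I subunits. In complex V, 2 of 15 genes were lower at an unadjusted p under 0.05, where the share of all genes was 1.37%. In complexes II, III and IV 0 genes were. Atp5g1, which encodes the c-ring subunit, had a log2 fold change of -0.37 ± 0.10 (SE; edgeR unadjusted p = 0.00612, adjusted p = 0.953). Of 13 complex I assembly factors without an Nduf name, 11 were below 0 (median -0.13), with median deviations of -0.07, -0.17 and -0.06 in the BBP libraries. Ecsit, which forms a complex with Ndufaf1, was above 0 (0.06), and Acad9, its other partner, was below (-0.14). General markers of mitochondrial mass were below 0 for 11 of 12 genes (median -0.13), and factors that drive mitochondrial gene expression for 5 of 12 (median 0.03). None of the genes in these lists passed the adjusted threshold.

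Cell type and region markers were measured beside the complex I genes. The 11 neuron markers had median deviations of 0.02, 0.00 and -0.06 in BBP libraries 1, 2 and 3, and 6 of 11 were below 0 in log2 fold change (median -0.0039). The 10 oligodendrocyte markers were all above 0 (median 0.33), with deviations of 0.51, 0.58 and -0.06 and summed levels of 643 to 935 FPKM in the BBP libraries and of 576 to 794 FPKM in the corn oil libraries. The 11 striatum markers were all above 0 (median 0.53), with summed levels of 60.2 to 213 FPKM in the BBP libraries and of 61.1 to 106 FPKM in the corn oil libraries. The 9 isocortex markers were all above 0 (median 0.50), with 68.6 to 158 FPKM in the BBP libraries and 64.1 to 73.7 FPKM in the corn oil libraries. The 8 dentate granule cell markers, 3 of them below 0 in log2 fold change (median 0.02), had deviations of -0.95, 0.48 and 0.16 in the BBP libraries, against 0.11, 0.30 and -0.43 in the corn oil libraries, so both groups were uneven. Their summed levels were 35.0 to 71.7 FPKM in the BBP libraries and 43.1 to 66.1 FPKM in the corn oil libraries. Of the 8 CA2 and CA3 markers, 6 were below 0 (median -0.30), with 214 to 292 FPKM in the BBP libraries and 244 to 256 FPKM in the corn oil libraries. Choroid plexus markers were below 0 for 9 of 10 genes (median -0.52), with 73.3 to 85.1 FPKM in the BBP libraries and 103 to 401 FPKM in the corn oil libraries. Most of these sums was Ttr, at 51.5, 44.5 and 58.5 FPKM in the BBP libraries, against 81.4, 115 and 366 FPKM in the corn oil libraries. The median deviations of the list were -0.65, -0.11 and -0.55 in the BBP libraries, against -0.53, -0.13 and 0.55 in the corn oil libraries, so the corn oil group was uneven. All 8 astrocyte markers were above 0 (median 0.13), with 533 to 556 FPKM in the BBP libraries and 493 to 527 FPKM in the corn oil libraries. No marker of these lists was at 0 in any library. BBP library 2, the lowest for complex I, was the highest for dentate granule cell markers and was at -0.10 for striatum and 0.15 for isocortex markers, and BBP library 1, the highest for those, was at the corn oil level for complex I. The oligodendrocyte markers were high in both of these libraries. The part of any of these marker lists in the complex I values was not tested.

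The complex I transcripts are short, and short transcripts as a class were low in the same libraries. The principal transcripts of the 46 subunits and assembly factors span 419 to 4371 bases with a median of 977, against 2609.5 over all genes tested. Among 144 tested genes of up to 750 bases with a mean log2 CPM of at least 5, BBP libraries 2 and 3 both had a median deviation of -0.20. Among 1649 such genes of over 5000 bases the medians were 0.04 in BBP library 2 and 0.09 in BBP library 3. The 16 members of up to 750 bases were lower than the class of that length in BBP library 2 (-0.40) and near it in BBP library 3 (-0.22). Members with a mean log2 CPM of at least 5 are themselves in these classes. The part of length in the complex I values was not tested. In BBP library 2 the median deviation of the members was -0.54 for the 8 members of over 750 to 1000 bases, -0.42 for the 11 of over 1000 to 1500, -0.42 for the 6 of over 1500 to 2000, -0.16 for the 2 of over 2000 to 3000 and -0.38 for the 3 of over 3000 to 5000. Over all tested genes with a mean log2 CPM of at least 5, the BBP library 2 medians for these lengths were -0.28, -0.15, -0.07, -0.03 and 0.0007. Across the 46 genes, length and deviation had a Spearman rho of 0.12 for BBP library 2 and of 0.47 for BBP library 3. The 46 genes share libraries and are not independent. A further fit had an offset for the length of each gene's longest transcript, not the principal one. The 2 lengths differ widely for some members (4435 against 623 bases for Ndufb7). In that fit the median log2 fold change was -0.16 over the subunits, 35 of them below 0, and -0.15 over the assembly factors.

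**Figure D4:**
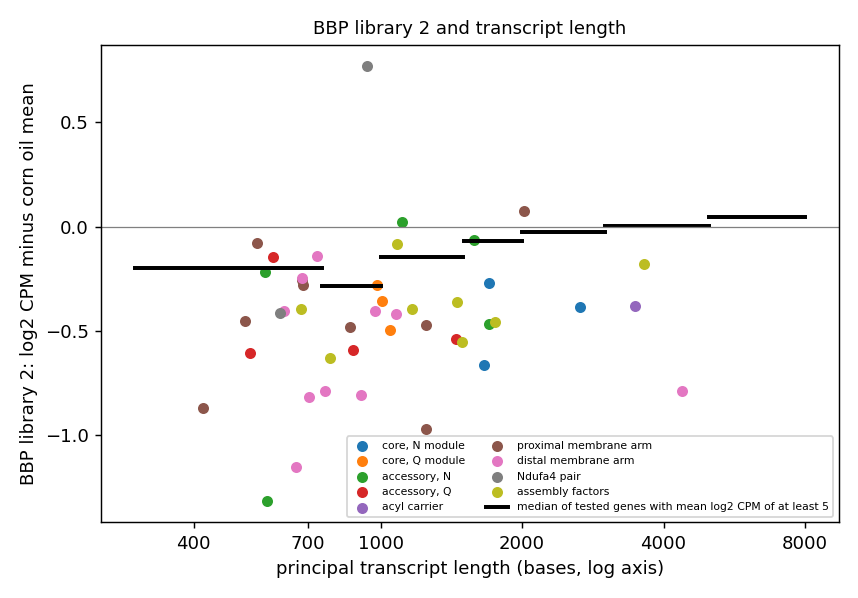
Log2 CPM minus the corn oil mean in BBP library 2 against principal transcript length (bases, log axis) for 45 of the 46 subunits and assembly factors, coloured by role. Black lines are the medians of tested genes with a mean log2 CPM of at least 5 in each length class, from -0.20 for the shortest to 0.04 for the longest, and most of the members up to 2000 bases lie below them.

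Promoter sequences from RefSeq (GRCm38.p6, 250 bases before to 50 after the start) were found for 33 subunit genes and 7 assembly factors, and they are shown because these genes were low together. No window was used for Ndufs1, Ndufa2, Ndufa4l2, Ndufb9, Ndufaf6 or the pseudogene copies. The letters AAGATGGCG, which match the motif of YY1, a zinc finger factor known at promoters of respiratory genes, were found on either strand in 5 of 33 subunit genes (15.2%) and 1 of 7 assembly factors (14.3%), and in 2.58% of windows of 13478 tested genes. In all 6 members they lay after the start site, from base 11 to base 36, and in 60.8% of the 347 tested genes that hold them. These letters contain ATG. The 30-base windows, with the match in capitals and read on the strand of the gene, are these.
Ndufa9 (chr6:126849097-126849126, minus strand): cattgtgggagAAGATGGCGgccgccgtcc
Ndufaf8 (chr11:120098933-120098962, plus strand): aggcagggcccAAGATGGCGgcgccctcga
Ndufc1 (chr3:51408915-51408944, minus strand): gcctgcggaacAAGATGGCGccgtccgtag
Ndufs4 (chr13:114388045-114388074, minus strand): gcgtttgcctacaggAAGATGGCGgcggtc
Ndufs6 (chr13:73328433-73328462, minus strand): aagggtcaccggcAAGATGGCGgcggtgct
Ndufs7 (chr10:80249462-80249491, plus strand): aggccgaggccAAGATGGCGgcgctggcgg

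The letters GCGCA, any base, then GCGC, which match the motif of NRF1, a factor of nuclear respiratory genes, were found on either strand in 7 of 33 subunit windows (21.2%) and 2 of 7 assembly factor windows (28.6%), and in 8.89% of all windows. CCGGAAG, a motif of ETS factors such as GABP, was found on either strand in 4 of 33 (12.1%) and 2 of 7 (28.6%), and in 15.3% of all windows. At least 1 of the 3 motifs, which may overlap, was in 15 of 33 subunit windows (45.5%), 4 of 7 assembly factor windows (57.1%) and 24.2% of all windows. The 19 members with at least 1 had a median deviation of -0.40 in BBP library 2, and the 21 without had -0.42. By motif, the median was -0.25 over 9 members with the NRF1 letters and -0.45 over 31 without, -0.45 over 6 with the ETS letters and -0.41 over 34 without, and -0.50 over 6 with the YY1 letters and -0.40 over 34 without. Windows of 150 bases, from 120 before to 30 after the start, are printed for 3 genes: Ndufb4, which holds the NRF1 letters at a pair of places (in capitals), and Ndufb6 and Ndufa10, the lowest and the highest of the 40 members with a window in BBP library 2, neither of which holds any of the 3 motifs in this stretch.
Ndufb4 (chr16:37654339-37654488, minus strand): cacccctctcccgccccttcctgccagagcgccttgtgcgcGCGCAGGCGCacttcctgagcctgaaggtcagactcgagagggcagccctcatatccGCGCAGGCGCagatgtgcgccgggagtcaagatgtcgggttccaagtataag
Ndufb6 (chr4:40279392-40279541, minus strand): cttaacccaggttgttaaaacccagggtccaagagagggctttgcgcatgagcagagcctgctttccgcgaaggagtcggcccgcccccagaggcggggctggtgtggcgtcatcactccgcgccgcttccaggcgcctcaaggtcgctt
Ndufa10 (chr1:92473729-92473878, minus strand): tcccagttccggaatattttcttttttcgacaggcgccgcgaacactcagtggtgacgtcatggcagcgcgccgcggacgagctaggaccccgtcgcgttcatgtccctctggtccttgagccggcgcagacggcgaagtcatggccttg

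Some members have processed copies elsewhere in the genome, and how the counting split reads between a gene and its copy was not tested, so these values are uncertain. Ndufa12, a late subunit of the matrix arm, had 2656, 3015 and 3994 estimated counts in BBP libraries 1, 2 and 3, against 3813, 2573 and 3572 in corn oil libraries 1, 2 and 3. Its processed copy Ndufa12-ps had 2379, 2990 and 705 in the BBP libraries, against 1443, 2232 and 2148 in the corn oil libraries. The copy thus took 47.2%, 49.8% and 15.0% of the pair in the BBP libraries, against 27.5%, 46.5% and 37.6% in the corn oil libraries, shares that varied within both groups. The summed counts were 5035, 6005 and 4699 in the BBP libraries, against 5256, 4805 and 5720 in the corn oil libraries. On the summed counts BBP library 2 lay 0.34 above the corn oil mean (log2), so the pair was not low where most members were.

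Of the copies that the symbol rule kept, Ndufb4c stood at 16.4, 10.5 and 12.8 FPKM in the BBP libraries, against 14.3, 16.4 and 18.8 FPKM in the corn oil libraries. It followed its parent Ndufb4, which stood at 27.2, 18.8 and 24.2 FPKM in the BBP libraries, against 24.5, 25.2 and 30.9 FPKM in the corn oil libraries. Ndufs6b stood at 1.36, 0.692 and 0.776 FPKM in the BBP libraries, against 1.18, 0.302 and 0.822 FPKM in the corn oil libraries, a log2 fold change of 0.30 ± 0.58 (SE). Ndufa11b had 3 estimated counts in BBP library 3 and 0 in the other libraries, and it was not tested. Exons of 19 of the 46 subunits and assembly factors overlap another annotated gene, and reads of overlapping genes may not be separable.

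**Figure D5:**
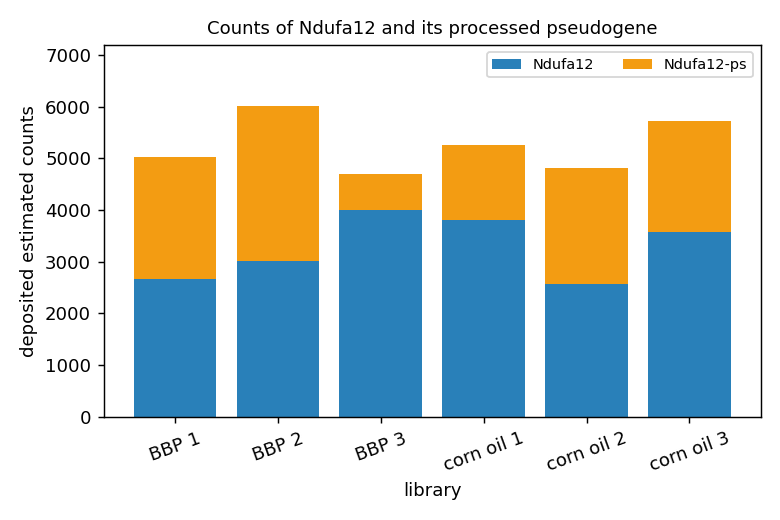
Estimated counts of Ndufa12 and of its copy Ndufa12-ps, stacked, in each library, with BBP libraries on the left. The parts vary from library to library in both groups (copy share 15.0% to 49.8% in the BBP group, 27.5% to 46.5% in the corn oil group), and the stack is highest in BBP library 2.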

How the data were processed

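Polyadenylated RNA of mouse hippocampus was sequenced in 3 BBP and 3 corn oil libraries with strand-marking, molecular-identifier adapters, per the labels' protocols. Per the submitters' processing notes, tools were StringTie 2.1.6, HISAT2 2.2.1, cutadapt 1.9, edgeR, DESeq2 and UMI-tools, on build mm10, with no roles stated. The authors deposited whole-number estimated counts and FPKM per gene, per the file headers. A count of 4 was more frequent than 3 or 5 in each library, so about 4 counts may stand for 1 fragment. Their scaling and counting strand are unstated (not given in the sources used here).

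The estimated counts were compared over the whole table with edgeR 4.0.16 in R 4.3.3 (TMM, filterByExpr, quasi-likelihood F test, Benjamini-Hochberg over 20428 genes; biological coefficient of variation 0.225). SE was computed as |log2 fold change| divided by the root of F. Log2 CPM used a prior count of 2. Alternatives used DESeq2 1.42.0 and limma 3.58.1 on log2(FPKM + 1), where mean FPKM reached 1. Code was tested on simulated data. Transcript lengths were those of GENCODE M21 (99.69% of gene IDs matched), and promoters those of RefSeq.

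Members and lists were chosen with earlier results of these data known. Values per library are given for the core subunits, the assembly factors, the 2 most abundant genes and the gene with the smallest p in each other role, and up to 3 genes in each direction whose groups did not overlap. A result that this rule selects is not reported here, although its gene stays in the counts and medians. Others were named after their values were seen.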

Additional observations from a re-analysis of the deposited data

How the results depend on the processing

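The subunit median kept its sign in every alternative run. It ranged from -0.29 to -0.10 on leaving out 1 library, and the assembly factor median from -0.30 to -0.04. Negative subunit genes then numbered 33 to 37. Genes at an adjusted p under 0.05 numbered 0 in the main edgeR fit, 3 with DESeq2, 0 to 3 without 1 library (3 without BBP library 1) and 10 without BBP libraries 1 and 2, a fit added after the data were seen that assumes the lone BBP library varies like the corn oil group. No member was among them. Members at an unadjusted p under 0.05 numbered 7, but 4 with DESeq2, 3 with limma and no FPKM filter, 1 to 27 without 1 library (27 without BBP library 1, 1 without any 1 corn oil library, 3 without BBP library 2 or 3) and 14 without BBP libraries 1 and 2. Over all genes that count was 685, and it was 393 to 476 without a corn oil library, 1475 without BBP library 1, 725 without BBP library 2, 1530 without BBP library 3 and 1187 without BBP libraries 1 and 2. The count over all genes was 829 with DESeq2 (2.6%) and 1068 with limma and no FPKM filter (3.35%). Without BBP libraries 1 and 2 the assembly factor median minus the subunit median was 0.10.

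The replicate block gave 4 members at an unadjusted p under 0.05, beside 494 of all genes (2.42%), with medians of -0.20 and -0.19. Correlations of same-numbered deviations were -0.077, 0.076 and -0.102, and that of BBP library 1 with corn oil library 3 was 0.15. With 3 libraries a group, such values cannot show whether the shared numbers pair the libraries.

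Of 591 values of named members under the alternatives, 581 kept their sign. Ndufs7 was 0.0028 with the length offset, and without BBP libraries 1 and 2 Ndufv1 was 0.0042 and Ndufs6b was -0.036. Without 1 library, ranges crossing 0 were -0.16 to 0.058 for Ndufs7, -0.19 to 0.0035 for Ndufs1, -0.29 to 0.0087 for Ndufv1, -0.17 to 0.048 for Ndufaf1 and -0.063 to 0.73 for Ndufs6b. The cause was not tested. With 3 libraries a group, the SE of members (0.08 to 0.28, median 0.13) was of the size of most differences.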
